A study of Bos taurus with 8 samples.

Results

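The insulin, AKT, MTOR and AMPK genes of energy sensing were followed here as a set of 10 transcripts listed by name: INSR, IRS1, IRS2, AKT1, AKT2, MTOR, TSC1, TSC2, PRKAA1 and PRKAA2. Of these, 9 were found by gene symbol among the 19901 symbols (26773 transcript clusters) of the array, each with 1 cluster. IRS2 carries the placeholder symbol LOC100300012 in the array annotation and was matched through its gene ID in RefSeq (assembly ARS-UCD2.0), so that its values are given beside the others and the counts cover the 9. The samples were mural granulosa cells, the steroid-producing layer that lines the follicle wall, scraped from the dominant follicle of 8 lactating German Holstein cows. In the heat stress (HS) group 4 cows were kept at 28°C and a temperature-humidity index of 76, and in the pair-fed (PF) group 4 cows were kept at 15°C and an index of 60, for 96 h in a respiration chamber and with feed intake matched to that of the heated cows. All 8 cows had received 500 µg of prostaglandin F2α and, 49 h later, 100 µg of a GnRH analog to induce the LH surge, and sampling was meant to fall after the surge and before ovulation. For this stage the study cited ratios of progesterone to estradiol above 1 in every follicle, and high mean PTGS2 signals in both groups. In 1 PF cow, replicate 3, the transcript levels of surge-induced markers went against it, as given below. Each cow gave RNA for an array of its own.

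Insulin binds its receptor on the cell surface, and the receptor phosphorylates adaptor proteins of the IRS family, through which phosphoinositide 3-kinase switches on the kinase AKT. AKT relieves the brake that the TSC1 and TSC2 proteins place on MTOR, the kinase that drives protein synthesis and growth when hormones, amino acids and energy are in supply. AMPK, whose catalytic subunits are encoded by PRKAA1 and PRKAA2, senses a low energy charge and acts in the opposite direction, in part by activating TSC2 and restraining MTOR. In granulosa cells insulin and the related IGF1 are known to act with the gonadotropins on proliferation and steroid production. The arrays measured transcripts only, while this pathway is switched mainly by phosphorylation.

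Across the members, no transcript passed the thresholds of the study, an absolute fold change above 1.5 (0.585 on the log2 scale) with an unadjusted p under 0.05. These thresholds were passed by 2.21% of all clusters and by 2.93% of the 12422 symbols with a mean log2 signal of at least 5, a level that all 9 members reached. The same thresholds called 591 clusters over the whole array, of which 71.6% were higher in HS (83.9% of 672 when each array was centred on its median). MTOR alone had an unadjusted p under 0.05, which 7.2% of all clusters had. After Benjamini-Hochberg adjustment over all clusters the limma test called no cluster of the array at 0.05, and the unpaired analysis of variance of the study's methods called none either. The signals of HS and PF overlapped in all 9 members, whereas 4.64% of all clusters and 5.56% of the symbols with a mean log2 of at least 5 separated the groups without overlap. In 8 of the 9 members the mean was higher in HS, with INSR as the exception, against 46% of all clusters and 53.7% of the symbols with a mean log2 of at least 5. The median log2 fold change of the 9, HS minus PF, was 0.07, beside -0.02 over all clusters and 0.02 over those symbols.

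**Figure D1:**
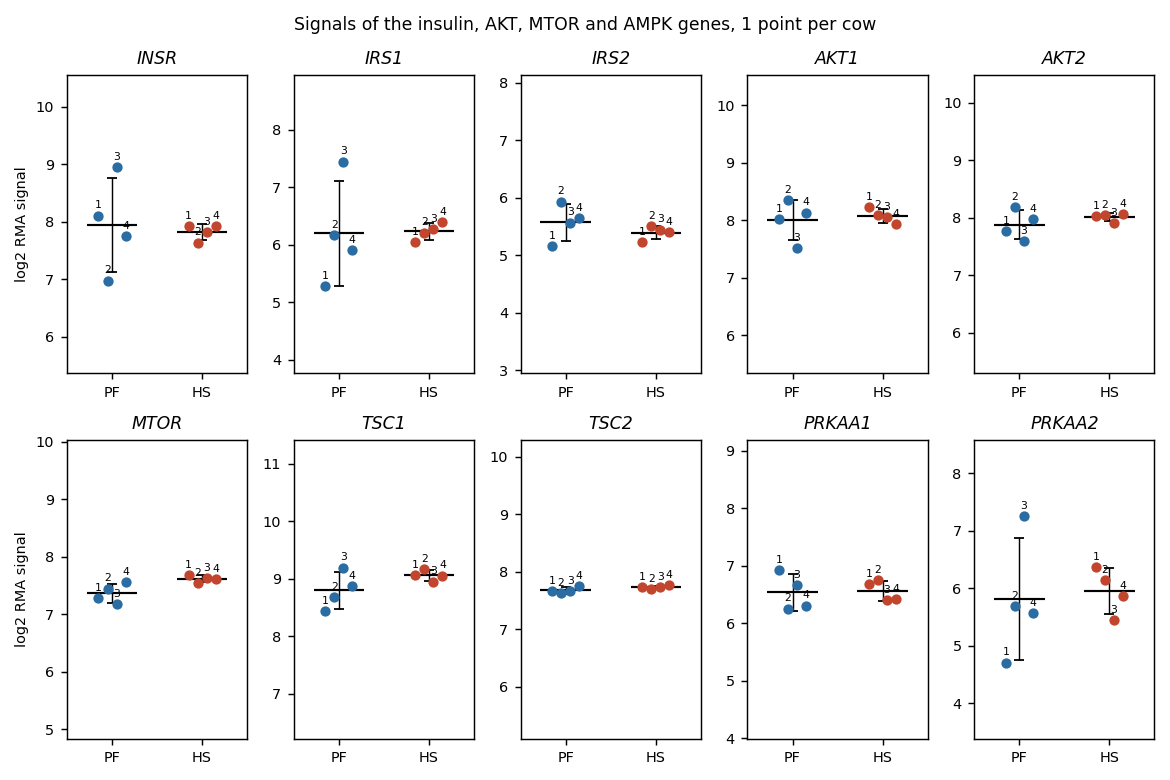
Log2 RMA signal (vertical axis) of each of the 10 genes in PF (blue) and HS (red), with 1 point per cow numbered by replicate, the group mean as a horizontal line and the SD as the bar; each vertical axis spans the same number of log2 units. The PF points of PRKAA2 lie between 4.71 and 7.26 and those of HS between 5.44 and 6.37, and the groups overlap in every panel.

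The arrays differed in ways that the groups do not account for. PF replicate 1 had the highest mean of all 8 arrays over the endothelial markers (8.42) and over the fibroblast and smooth muscle markers (9.65). PF replicate 3 stood apart in the surge-induced and the myeloid markers, and had the lowest means over the granulosa and theca lists. PTGS2, the prostaglandin synthase that the LH surge induces, was at 3.46 in that array and between 10.03 and 11.02 in the other 7. The mean over 10 surge-induced markers was 5.89 in PF replicate 3, 8.22 to 9.12 in the other PF arrays and 8.16 to 8.45 in HS. Of these 10, RUNX1 (7.48) and ADAMTS1 (8.84) lay within the range of the other arrays in PF replicate 3. AREG, matched through its synonym to the cluster annotated as AREGB, was near the floor in all 8 arrays (2.27 to 3.14). Among 12 myeloid markers the mean over the list was highest in the same array, at 8.96, against 6.36 to 7.68 in the other PF arrays and 6.18 to 7.37 in HS. Granulosa identity was present in every array: the mean over 13 markers was 7.68 to 8.51 in PF and 8.51 to 8.96 in HS. Of the 13, 11 were higher in HS. The value of 7.68 was that of PF replicate 3, against 8.24 to 8.51 in the other PF arrays. Single markers went both ways there, with HSD3B1 (7.36) lowest and FOXL2 (8.25) highest of all arrays. The value of 8.96 was that of HS replicate 4. CYP19A1 was at 10.65 in that array and between 4.42 and 6.92 in the others, while STAR (5.25) was lowest there. Markers of other cell types were mostly lower in HS, namely 12 of 12 myeloid, 12 of 12 lymphocyte (4.77 to 5.72 in PF and 4.51 to 5.03 in HS), 11 of 11 endothelial (5.51 to 8.42 and 5.33 to 7.75), 12 of 13 fibroblast and smooth muscle (7.54 to 9.65 and 7.08 to 8.90) and 5 of 6 erythrocyte markers (4.03 to 4.23 and 3.93 to 4.07). The 4 theca markers, which share 2 genes with the granulosa list, went up in 2 cases and down in 2 (6.58 to 9.88 and 8.63 to 9.26). The value of 6.58 was that of PF replicate 3, against 8.97 to 9.88 in the other PF arrays. Without PF replicates 1 and 3 the median log2 fold change was -0.01 for the myeloid list (-0.86 on all arrays) and -0.12 for the endothelial list (-0.88). It was -0.29 for the fibroblast and smooth muscle list (-0.87), -0.21 for lymphocyte (-0.46) and -0.175 for erythrocyte markers (-0.12). In that setting 6 of 12 myeloid and 7 of 13 granulosa markers were higher in HS. None of these list differences was tested as a cause of the values below. In RNA of a bulk cell preparation, fewer cells of a type and less RNA per cell cannot be told apart.

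The insulin receptor and its adaptors showed no difference between HS and PF beyond the spread between cows. INSR, which encodes the receptor itself, had log2 signals of 8.11, 6.97, 8.95 and 7.75 in PF replicates 1 to 4 and 7.93, 7.64, 7.82 and 7.93 in HS replicates 1 to 4. The lowest and the highest value both belonged to PF cows, and all HS cows lay between them. PF averaged 7.94 ± 0.82 and HS 7.83 ± 0.14 (SD, n = 4 each). The log2 fold change was -0.12 (standard error 0.36, 95% interval -0.94 to 0.71, limma adjusted p = 0.937), and the exact permutation test, which goes through all 70 ways to divide the arrays into groups of 4, gave p = 0.743. The probes of this cluster were annotated to a partial coding sequence of the receptor. Without PF replicate 3 the log2 fold change of INSR was 0.22, so that the sign of this difference rested on that array.

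IRS1, the adaptor that docks phosphoinositide 3-kinase to the activated receptor, was measured at 5.28, 6.17, 7.45 and 5.91 in PF and at 6.05, 6.21, 6.27 and 6.40 in HS. Again the PF cows enclosed the HS cows, with PF replicate 1 at the bottom and PF replicate 3 at the top. The log2 fold change was 0.03 with a 95% interval from -0.88 to 0.94 (adjusted p = 0.986, exact permutation p = 0.943). It came to 0.45 without PF replicate 3 and to -0.28 without PF replicate 1, and was also negative without PF replicate 4 (-0.07) or HS replicate 4 (-0.02). For IRS2, the adaptor that is prominent in liver and in pancreatic islets, the signals were 5.15, 5.93, 5.57 and 5.64 in PF and 5.22, 5.50, 5.45 and 5.40 in HS. Of the 4 PF cows, 3 were above all HS cows, and PF replicate 1 was below them. The mean of IRS2 was 0.18 lower in HS on the log2 scale (log2 fold change -0.18, 95% interval -0.56 to 0.20, adjusted p = 0.768, exact permutation p = 0.343). Without PF replicate 1 the log2 fold change of IRS2 was -0.32 with an unadjusted p of 0.0389.

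Neither AKT kinase differed between HS and PF beyond the spread between cows. AKT1, the isoform tied mainly to growth and survival, had 8.03, 8.35, 7.52 and 8.13 in PF and 8.24, 8.10, 8.06 and 7.93 in HS. PF replicate 3 was the lowest of all 8 arrays and PF replicate 2 the highest. The log2 fold change of AKT1 was 0.07 (95% interval -0.33 to 0.47, adjusted p = 0.919, exact permutation p = 0.800), and -0.09 without PF replicate 3. AKT2, the isoform tied mainly to glucose uptake, was at 7.76, 8.19, 7.59 and 7.98 in PF and at 8.04, 8.05, 7.91 and 8.07 in HS. HS cows were tightly grouped, within 0.16 log2 units, whereas PF cows spread over 0.60. The means of AKT2 were 7.88 ± 0.26 and 8.02 ± 0.07 (SD, n = 4 each), which gave a log2 fold change of 0.13 (95% interval -0.18 to 0.45, adjusted p = 0.788, exact permutation p = 0.371). For both kinases the interval lay inside a 1.5-fold change in either direction.

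The brake on MTOR and MTOR itself all had higher means in HS, by small amounts. TSC1, which stabilizes the complex, was at 8.43, 8.67, 9.19 and 8.87 in PF and at 9.05, 9.17, 8.95 and 9.05 in HS. All HS cows lay above 3 of the PF cows, and PF replicate 3 lay above all HS cows. The log2 fold change of TSC1 was 0.26 (standard error 0.16, 95% interval -0.11 to 0.63, adjusted p = 0.703, exact permutation p = 0.200). Leaving out PF replicate 3 raised it to 0.39 (unadjusted p = 0.0137, adjusted p = 0.349), and leaving out PF replicate 1 lowered it to 0.14. TSC2, the subunit that inactivates the small GTPase RHEB and is annotated on this array as tuberin-like, had the tightest values of the members. Its signals were 7.67, 7.63, 7.67 and 7.76 in PF and 7.74, 7.71, 7.73 and 7.77 in HS, and the interval of its log2 fold change of 0.06 ran from -0.13 to 0.24 (adjusted p = 0.849, exact permutation p = 0.114).

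MTOR was the member with the smallest p. Its signals were 7.28, 7.45, 7.18 and 7.55 in PF and 7.69, 7.54, 7.62 and 7.61 in HS. Only PF replicate 4 reached into the HS range, and it exceeded HS replicate 2 alone. PF averaged 7.36 ± 0.17 and HS 7.62 ± 0.06 (SD, n = 4 each), so that the log2 fold change was 0.25 (standard error 0.11, 95% interval 0.01 to 0.50). The unadjusted limma p of 0.0446 became 0.683 after adjustment over all clusters, and the exact permutation test gave p = 0.057, where the smallest p this design allows is 0.029. The difference stayed positive whichever array was left out, between 0.19 (without PF replicate 3) and 0.31 (without PF replicate 4). Its unadjusted p was under 0.05 in 2 of these 8 repeats, without PF replicate 2 (0.0494) and without PF replicate 4 (0.0207), and lay between 0.0585 and 0.0992 in the others. The log2 fold change of MTOR fell to 0.12 without PF replicates 1 and 3 (limma unadjusted p = 0.267). With array weights it was also 0.12 (limma unadjusted p = 0.204).

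Neither catalytic subunit of AMPK differed between HS and PF beyond the spread between cows, and that spread was wide for PRKAA2. PRKAA1, which encodes the α1 subunit, was at 6.92, 6.25, 6.66 and 6.30 in PF and at 6.68, 6.74, 6.40 and 6.42 in HS. The groups overlapped almost entirely, and the log2 fold change of 0.03 had a 95% interval from -0.36 to 0.42 (adjusted p = 0.972, exact permutation p = 0.914). It took the opposite sign in 4 of 8 repeats with a single array removed, without HS replicate 1, HS replicate 2, PF replicate 2 or PF replicate 4, down to -0.07. PRKAA2, which encodes the α2 subunit known mainly from muscle, heart and liver, varied most of all members: 4.71, 5.70, 7.26 and 5.57 in PF and 6.37, 6.14, 5.44 and 5.86 in HS. PF replicate 1 was the lowest and PF replicate 3 the highest array, and they were 2.55 log2 units apart. The mean of PRKAA2 was 5.81 ± 1.06 in PF and 5.95 ± 0.40 in HS (SD, n = 4 each), and the log2 fold change was 0.15 with a 95% interval from -0.97 to 1.26 (adjusted p = 0.943, exact permutation p = 0.800). It was 0.63 without PF replicate 3 (unadjusted p = 0.0648) and -0.22 without PF replicate 1.

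**Figure D2:**
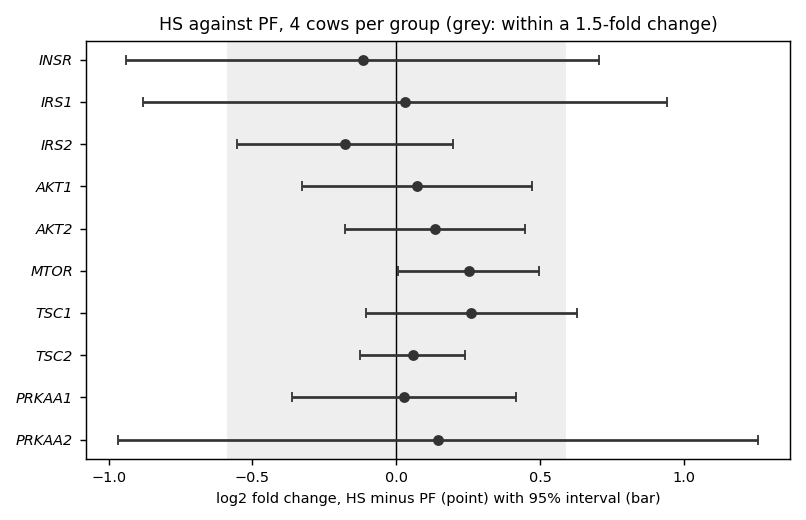
Log2 fold change of each gene (HS minus PF, horizontal axis) as a point with its 95% interval from the limma fit (bar), 4 cows per group, with changes of less than 1.5-fold shaded in grey. The intervals of INSR, IRS1, TSC1 and PRKAA2 reach past the shaded range, and only that of MTOR (0.01 to 0.50) leaves out 0.

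The intervals differ in what they leave possible. For AKT1, AKT2, MTOR, TSC2 and PRKAA1, 5 of the 9 members, the whole interval lay within a 1.5-fold change in either direction, as it did for 49.9% of the symbols at a mean log2 of 5 or more and for 60% of all clusters. IRS2 also met this criterion. For INSR, IRS1 and PRKAA2 the interval reached past a 1.5-fold change in both directions, so that such changes could not be told from none with 4 arrays per group, and for TSC1 the upper bound alone passed 1.5-fold.

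The PF cows set most of this spread. In 9 of 9 members the SD was smaller in HS than in PF, as it was in 75.5% of all clusters and in 85.5% of the symbols whose mean log2 was at least 5. In 7 of the 9 members PF replicate 3 was either the highest array (INSR, IRS1, TSC1 and PRKAA2) or the lowest (AKT1, AKT2 and MTOR), against 57.3% of the symbols with a mean log2 of at least 5. Compared with the mean of the other 3 PF arrays, it was higher by 1.94 log2 units for PRKAA2, by 1.66 for IRS1, by 1.34 for INSR and by 0.53 for TSC1. For AKT1 it differed by -0.65, for AKT2 by -0.38 and for MTOR by -0.24. The receptor, the adaptor and the α2 subunit were thus high, and the AKT kinases and MTOR low, in PF replicate 3. That array had the lowest means over the surge-induced, granulosa and theca markers and the highest mean over the myeloid markers. The part of these markers in the values was not tested. Without PF replicate 3, 8 of the 9 members were still higher in HS, with AKT1 in place of INSR as the exception, none passed the thresholds, and the median log2 fold change was 0.19.

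**Figure D3:**
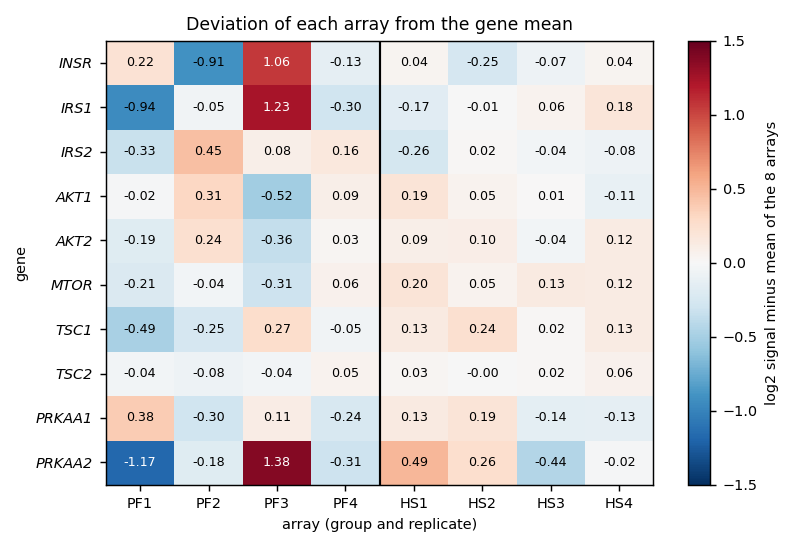
Deviation of each array (horizontal axis, PF replicates left of the black line and HS replicates right of it) from the mean of the 8 arrays, per gene (vertical axis), in log2 units and coloured from blue (below the mean) to red (above). PF3 carries the darkest red cells, for PRKAA2, IRS1 and INSR, and PF1 and PF2 the darkest blue ones.

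The 2 members with the largest SD over the arrays, PRKAA2 and IRS1, were set against 12650 clusters of a single symbol, all at a mean log2 of at least 5, to find the transcripts whose pattern over the 8 arrays was most alike. For PRKAA2 these were SAMD15 (Pearson r = 0.99), the zinc finger gene ZNF331 (0.99) and NSUN7 (0.98), an RNA methyltransferase family member. Without PF replicate 3 the r of these genes with PRKAA2 was 0.99, 0.99 and 0.96. For IRS1 they were the cluster annotated to MIR2475 (r = 0.99), CPSF6, a factor of 3′ end processing (0.98), and the zinc finger gene ZNF605 (0.98), with 0.95, 0.95 and 0.94 without that array. All 8 points are shared between these measures, and the r values describe likeness over these arrays only.

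To place the members, 130 further genes of the pathway were listed in 8 groups by role. The lists were chosen with earlier results of these data known, and CCNG2, PRKAB2 and CAMKK2 were on the study's own list of affected genes. The shares below are therefore not independent evidence of an excess in the pathway. Of the 130 genes, 119 had a mean log2 of at least 5. A higher mean in HS was found in 83 of the 130 (63.8%) and a lower mean in 47. Means were higher in HS in 46% of all clusters and in 53.7% of the symbols with a mean log2 of at least 5. The median log2 fold change of the 130 was 0.10, beside -0.02 over all clusters and 0.02 over those symbols. The thresholds of the study were passed by 7 genes (5.38%, against 2.21% of all clusters and 2.93% of the symbols with a mean log2 of at least 5), 6 with a higher mean in HS (1.58% of all clusters) and 1 with a lower mean (0.627%). An unadjusted p under 0.05 was reached by 15 genes in the upward and 3 in the downward direction, that is, by 13.8% against 7.2% of all clusters (4.39% upward and 2.81% downward) and 8.95% of those symbols. HS lay wholly above PF in 10 of the genes, which 2.64% of all clusters did, and wholly below in 1, which 2% of all clusters did. Among the 12422 symbols with a mean log2 of at least 5, HS lay wholly above PF in 505 and wholly below in 186. PF replicate 3 was the highest or the lowest array in 93 of the 130, and without it 2 genes passed the thresholds, of which CCNG2 alone had passed on all arrays. These 2 made up 1.54% of the pathway genes, below the 3.39% of all clusters that passed without PF replicate 3, whereas on all arrays the share was above that of all clusters.

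**Figure D4:**
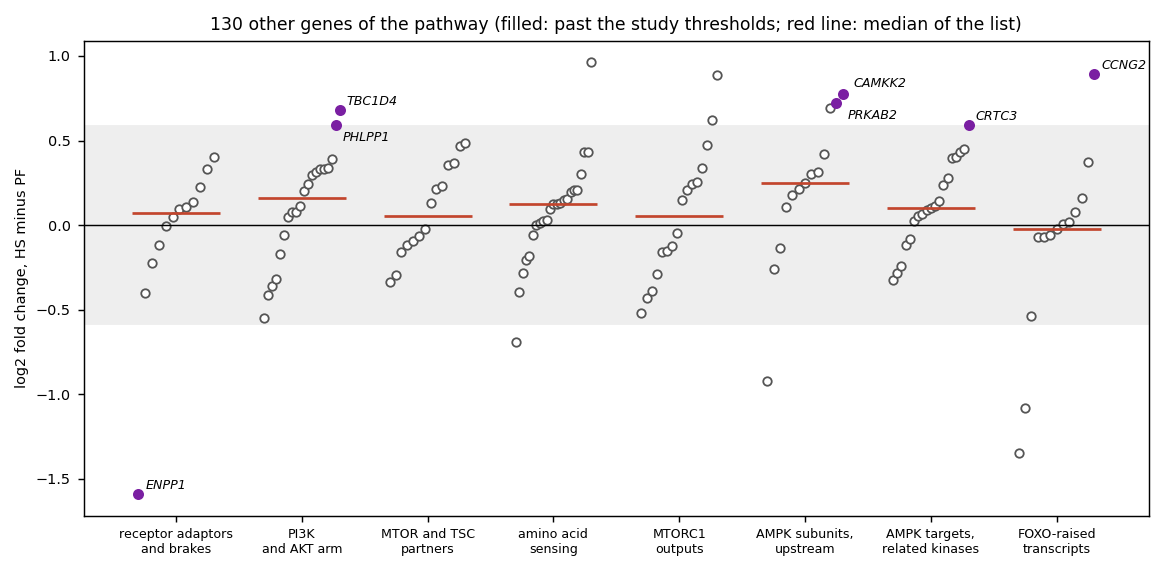
Log2 fold change (HS minus PF, vertical axis) of the 130 other genes of the pathway in 8 groups by role, 1 point per gene, with the median of each group as a red line, genes past the thresholds filled and changes of less than 1.5-fold shaded in grey. Of the 7 filled points, 6 lie above the shaded range and ENPP1, at -1.59, below it.

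Among the 12 adaptors and brakes at the receptor, 7 had a higher and 5 a lower mean in HS, and the median difference was 0.07. ENPP1, a membrane enzyme known to bind and inhibit the insulin receptor, was the only gene of the 8 pathway lists that fell past the thresholds. Its signals were 8.63, 5.62, 7.58 and 6.83 in PF and 4.73, 5.86, 6.68 and 5.03 in HS. PF replicate 2 lay within the HS range, so that the groups overlapped. The log2 fold change of ENPP1 was -1.59 (unadjusted p = 0.0408, adjusted p = 0.683, exact permutation p = 0.114), and it kept its call only in the repeats without PF replicate 2 or without HS replicate 3. It was -1.10 without PF replicate 1 and -1.45 without PF replicate 3. On all arrays, most fibroblast, endothelial and myeloid markers had lower means in HS as well (12 of 13, 11 of 11 and 12 of 12). Their part in the value of ENPP1 was not tested. SH2B1, an adaptor that enhances receptor signaling, had 6.96 ± 0.47 in PF and 7.36 ± 0.13 in HS and did not pass (log2 fold change 0.40, unadjusted p = 0.104).

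In the arm of phosphoinositide 3-kinase and AKT, 14 of 20 genes were higher in HS, and the median was 0.16. Means were higher in HS in 46% of all clusters and in 53.7% of the symbols with a mean log2 of at least 5. An unadjusted p under 0.05 was reached by 4 of the 20, against 7.2% of all clusters and 8.95% of those symbols. PHLPP1, a phosphatase that removes an activating phosphate from AKT, rose from 7.52 ± 0.44 to 8.12 ± 0.09, a log2 fold change of 0.59 (unadjusted p = 0.0198). TBC1D4, an AKT substrate that holds back the insulin-driven glucose transporter inside the cell, rose from 8.47 ± 0.60 to 9.15 ± 0.11, a log2 fold change of 0.68 (unadjusted p = 0.0346). In both genes every HS cow was above every PF cow, although by little. For PHLPP1, HS replicate 3 was at 8.03 and PF replicate 2 at 8.01. For TBC1D4, HS replicate 2 was at 9.04 and PF replicate 4 at 9.02. Neither call was firm. PHLPP1 lost it without HS replicate 1, HS replicate 2, PF replicate 1 or PF replicate 3 (log2 fold change 0.46 to 0.57), and TBC1D4 kept it only without PF replicate 2 or PF replicate 4, with a log2 fold change of 0.39 without PF replicate 3. PIK3R1, the regulatory subunit of the kinase, separated the groups without overlap at a smaller difference, 10.25 ± 0.24 in PF and 10.64 ± 0.10 in HS (log2 fold change 0.39, unadjusted p = 0.0179).

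No gene among the partners of MTOR and TSC, the amino acid sensors or the outputs of MTORC1 passed the thresholds. The 14 partners were split evenly in direction, with a median of 0.06. RPTOR, the scaffold that defines the MTORC1 complex, had a log2 fold change of 0.47 (unadjusted p = 0.0193) and TBC1D7, a subunit of the TSC complex, one of 0.37 (unadjusted p = 0.0319), the latter without overlap between the groups. Of 23 genes of amino acid sensing at the lysosome, 17 were higher in HS with a median of 0.12. RRAGC, one of the Rag GTPases that bring MTORC1 to the lysosome, had a log2 fold change of 0.21 without overlap (unadjusted p = 0.0424), and NPRL2, a subunit of the complex that switches the Rag GTPases off, one of 0.43 (unadjusted p = 0.0243). The 16 substrates and outputs of MTORC1 were evenly split as well, with a median of 0.05. RPS6, the ribosomal protein whose phosphorylation reads out MTORC1 activity, was 10.08 ± 0.25 in PF and 9.65 ± 0.15 in HS (log2 fold change -0.43, unadjusted p = 0.0169), and its probes may share sequence with processed copies of the gene. LPIN1, a phosphatidate phosphatase controlled by MTORC1, had a log2 fold change of 0.47 (unadjusted p = 0.0255).

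Of the 32 genes in both AMPK lists, 3 passed the thresholds (9.38%), and none of these 3 did so without PF replicate 3. On all arrays 2.21% of all clusters and 2.93% of the symbols with a mean log2 of at least 5 passed. The lists were chosen with earlier results known, and PRKAB2 and CAMKK2 were on the study's own list. This share is therefore not independent evidence of an excess. Of 13 genes for the other AMPK subunits and the kinases upstream of it, 10 were higher in HS, and the median was 0.25, or 0.16 without PF replicate 3. PRKAB2, the β2 regulatory subunit, had signals of 8.15, 8.60, 7.56 and 8.49 in PF and 9.05, 9.20, 8.66 and 8.78 in HS. Every HS cow was above every PF cow, and the log2 fold change was 0.72 (unadjusted p = 0.0147, adjusted p = 0.683). CAMKK2, a calcium-activated kinase that phosphorylates AMPK, was at 8.50, 9.01, 8.14 and 9.44 in PF and at 9.75, 9.35, 9.43 and 9.66 in HS. PF replicate 4 exceeded 2 of the HS cows, and the log2 fold change was 0.77 (unadjusted p = 0.0185). Without PF replicate 3 both genes fell short of 1.5-fold, with 0.51 for PRKAB2 and 0.56 for CAMKK2, and CAMKK2 also lost its call without PF replicate 1 (0.68, unadjusted p = 0.0503).

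Of 19 AMPK substrates and AMPK-related kinases, 14 were higher in HS, and the median was 0.10. CRTC3, a coactivator of CREB that these kinases hold in the cytoplasm, rose from 8.55 ± 0.27 to 9.14 ± 0.14, a log2 fold change of 0.59 (unadjusted p = 0.00386, adjusted p = 0.641). The groups did not overlap, but the change was just above 1.5-fold, and the call was lost without HS replicate 1, HS replicate 4, PF replicate 1 or PF replicate 3 (log2 fold change 0.50 to 0.57). ACACA, the acetyl-CoA carboxylase that AMPK inhibits, was higher in every HS cow than in any PF cow, at 6.48 ± 0.26 and 6.88 ± 0.11 (log2 fold change 0.40, unadjusted p = 0.0227).

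Of 13 transcripts that the FOXO factors, which AKT restrains, are known to raise in other tissues, 6 had a higher and 7 a lower mean in HS, and the median difference was -0.02. CCNG2, an unconventional cyclin linked to cell cycle arrest, was at 6.25, 6.51, 7.04 and 6.89 in PF and at 7.93, 7.28, 7.32 and 7.72 in HS. All HS cows lay above all PF cows, and the log2 fold change was 0.89 or 1.86-fold (standard error 0.22, unadjusted p = 0.00303, adjusted p = 0.641, exact permutation p = 0.029). CCNG2 kept its call in all 19 alternatives, with log2 fold changes from 0.75 to 1.02. CCNG2, PRKAB2 and CAMKK2 are also on the list of affected genes that the study drew from these arrays, so that their place here is not independent evidence of a direction. GADD45A, a growth arrest and DNA damage transcript, ran the other way without passing, at 6.44 ± 1.47 in PF and 5.09 ± 0.33 in HS (log2 fold change -1.35, unadjusted p = 0.0678), and its value without PF replicate 3, the highest array, was -0.68.

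**Figure D5:**
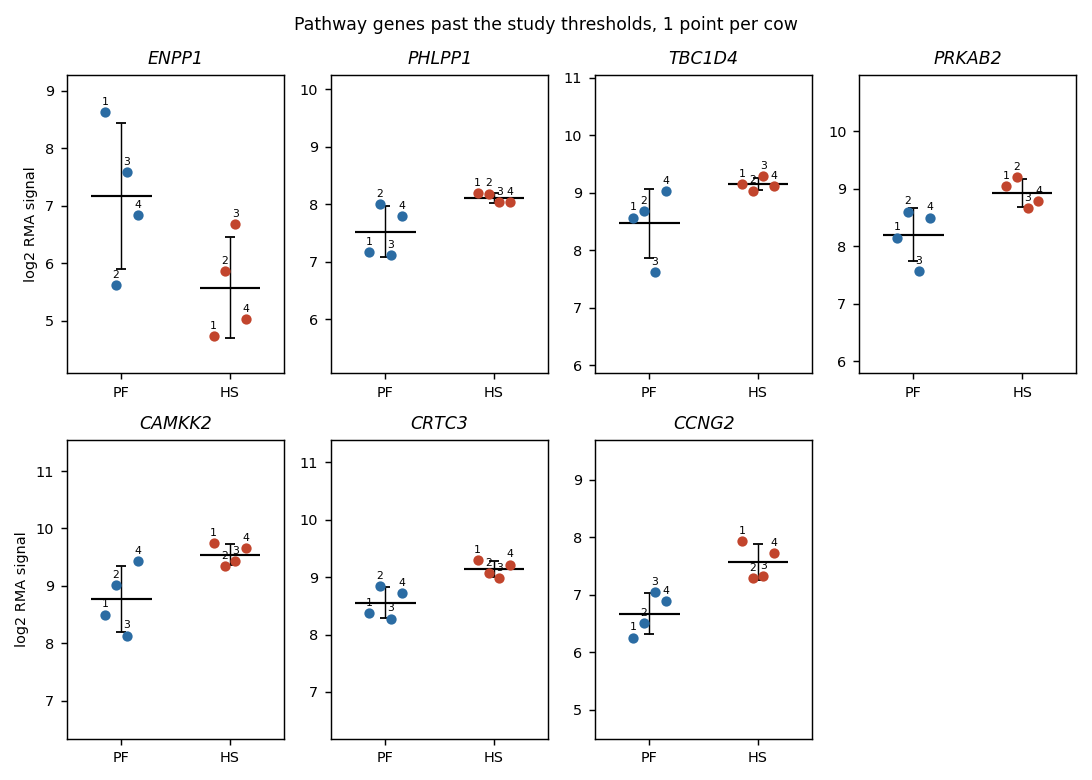
Log2 RMA signal (vertical axis) of the 7 pathway genes past the thresholds in PF (blue) and HS (red), 1 point per cow numbered by replicate, with the group mean as a line and the SD as the bar. The groups do not overlap in PHLPP1, TBC1D4, PRKAB2, CRTC3 and CCNG2, and PF replicate 3 is the lowest array in PHLPP1, TBC1D4, PRKAB2, CAMKK2 and CRTC3.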

How the data were processed

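Each cow's granulosa RNA was hybridized to a Bovine Gene 1.0 ST array. The authors processed the arrays with the robust multichip average (RMA) in the Affymetrix Expression Console, that is, background correction, normalization between arrays and a summary of probes to transcript clusters. The deposited values are log2 signals (0.89 to 12.51). The methods name the Transcriptome Analysis Console 3.0 for statistics. The annotated matrix and the series table, both deposited on the log2 scale, differed by at most 1.8e-15. Array medians lay between 5.33 and 5.44 in PF and between 5.27 and 5.37 in HS. Scanner intensities were not used here. Precision is limited by 4 arrays per group.

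A linear model with group as the only term was fitted to all 26773 clusters with limma 3.58.1 in R 4.3.3 (lmFit, eBayes), and p-values were adjusted over all clusters by Benjamini-Hochberg. The unpaired analysis of variance of the study's methods equals an equal-variance t-test here and was an alternative. Single genes also had a two-sided exact permutation test. Where a symbol had several clusters, that with the highest mean over the 8 arrays was used. Outside the members, every pathway gene past the thresholds and, per list, the 2 with the smallest p among those with a mean log2 of at least 5 are named; for likeness, the 3 clusters with the highest r. The members, lists and marker genes were chosen with earlier results of these data known. All 130 pathway genes matched by symbol, and 1 further gene is not reported here. The fit was tested on simulated data with 200 changed clusters. The simulation gave both groups the same spread in each cluster, so it could not test the fit under the larger PF spread seen here. Replicate numbers were not treated as pairs in the main fit, as neither the labels nor the methods name matches of single cows. Alternatives were another test, a trended spread, array weights, filters on weak or unnamed clusters, centring, repeated quantile normalization, the series table, means over clusters of a symbol, a replicate block, each array left out, and PF replicates 1 and 3 left out.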

Additional observations from a re-analysis of the deposited data

Results flagged for a closer look

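RRAGC, the Rag GTPase named above, had a log2 signal of 8.20 in PF replicate 4, while the other 3 PF arrays were all at 8.37. The gap to the nearest array was 0.961 of the whole range of the group, above Dixon's 95% critical value for 4 samples. Chance alone marks about 1 in 20 groups in this way, and 1 of the 54 groups examined (10 members and 17 named pathway genes in PF and in HS) was marked. None of the marks fell on PF replicate 3, although that array was the highest or lowest for 7 of the 9 members.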

How the results depend on the processing

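No member passed the thresholds under any of the 19 alternatives. The count of members with a lower mean in HS was 1 on all arrays, 2 without PF replicates 1 and 3, and 1 to 3 when single arrays were left out. Of the other pathway genes, 7 passed on all arrays, 1 without PF replicates 1 and 3, 1 with array weights, and 2 (without PF replicate 1 or 3) to 15 (without PF replicate 2) when single arrays were left out. Their share was 5.38% on all arrays (2.21% of all clusters) and 11.5% without PF replicate 2 (5.85%). It was below that of all clusters without PF replicates 1 and 3 (0.769% against 2.53%), with array weights (0.769% against 2.52%) and without PF replicate 3 (1.54% against 3.39%). Without PF replicates 1 and 3 the log2 fold change was -0.65 for ENPP1, 0.32 for CAMKK2, 0.22 for PHLPP1 and 0.30 for TBC1D4. Over the whole array 591 clusters passed, 678 without PF replicates 1 and 3, 674 with array weights, 355 by the methods' t-test, and 333 (without HS replicate 1) to 1566 (without PF replicate 2) with 1 array left out. No cluster passed an adjusted p of 0.05 by limma (1928 at an unadjusted p under 0.05) or by the methods' t-test (1802), and 3 passed without PF replicate 3. Without PF replicates 1 and 3 the log2 fold change changed sign for INSR (0.46), AKT1 (-0.16) and AKT2 (-0.070), and with array weights for INSR (0.10) and AKT1 (-0.053). With single arrays left out it ranged from -0.44 to 0.22 for INSR, from -0.28 to 0.45 for IRS1, from -0.091 to 0.19 for AKT1, from -0.067 to 0.16 for PRKAA1 and from -0.22 to 0.63 for PRKAA2. The cause was not tested. For samples of the same replicate number the correlations of their deviations ran from -0.27 to 0.21, and 1 of 8 arrays was closest to its own number. With so few arrays these values cannot show whether single cows were matched. With the replicate as a block, 669 clusters passed, of which 513 had passed without it, no member did, and 6 pathway genes passed, 5 of them the same.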

Other observations

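Some further genes of the pathway, all highest in PF replicate 3, were chosen after their values were seen. Among the 130 pathway genes that array was the highest in 43 (33.1%) and the lowest in 50 (38.5%). Over the symbols with a mean log2 of at least 5 these shares were 23.1% and 34.2%. EIF4EBP1 (6.93) and SEH1L (7.55), for example, were lowest there. PRKAG3, the γ3 regulatory subunit of AMPK known mainly from skeletal muscle, was at 9.98 in PF replicate 3, between 6.17 and 7.24 in the other PF arrays and between 6.56 and 6.76 in HS. FOXO1, the forkhead factor that AKT keeps out of the nucleus, was at 9.95 in the same array, between 8.09 and 8.23 in the other PF arrays and between 8.05 and 8.66 in HS. SESN3, a stress-induced sestrin that FOXO factors raise and that restrains MTORC1, was at 8.72 in that array against 4.78 to 6.90 in the other PF arrays and 5.70 to 6.39 in HS. RRAGD, a Rag GTPase that pairs with RRAGA or RRAGB, was at 5.98, 6.58, 7.59 and 6.52 in PF and at 7.23, 7.10, 6.68 and 7.40 in HS. It was the only gene of the pathway lists besides CCNG2 to pass the thresholds without PF replicate 3, with a log2 fold change of 0.74 (limma, adjusted p = 0.308), and it did not pass on all arrays.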
